A study of Mus musculus with 3 samples.

Results

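Brain endothelial cells, the cells that line the vessels of the brain, were described here in single nucleus RNA-sequencing data of mouse prefrontal cortex (PFC). They were selected on the measured counts of 5 endothelial transcripts: a nucleus was a member when it held at least 3 unique molecular identifiers (UMIs, 1 per captured RNA molecule) summed over Flt1, Cldn5, Pecam1, Slco1a4 and Nostrin, at least 1 of them from Flt1, and no UMI of the neuronal genes Slc17a7, Gad1 and Gad2 or of the meningeal fibroblast genes Slc6a13 and Ranbp3l. Quality limits (200 or more detected genes, and less than 10% of counts from mitochondrial genes) left 43464 nuclei, of which 70 met this rule, a share of 0.161% (exact 95% interval 0.126% to 0.203%). Since the rule uses measured values, the levels of the 5 rule genes in these nuclei are a description and support nothing. A list of 30 other endothelial genes, which the rule did not use, was present in 69 of the 70 nuclei, and 66 held at least 3 UMIs of it. With every nucleus thinned to 500 UMIs it was present in 91.4% of endothelial nuclei, 18.7% of mural nuclei (pericytes and related cells of the vessel wall), 12.2% of microglia and 4.06% of oligodendrocytes.

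The study compared the PFC of Nav1 knockout (Nav1 KO) mice with that of C57BL/6 mice, and a BTBR T+ Itpr3tf/J (BTBR) library was deposited with them. Nav1 encodes neuron navigator 1, a protein of growing axons and dendrites, and the study asked how its loss changes the cells of the cortex. There was 1 library per group: C57BL/6 (wild-type, tissue of 5 mice pooled), Nav1 KO (a deletion in exon 1 of Nav1 made by genome editing in C57BL/6 embryos and kept as a line from 1 founder, tissue of 4 mice pooled) and BTBR (an inbred strain with no genotype label, whose number of mice the sources used here do not give). All mice were males of 6 to 8 weeks, and no treatment is given in the labels. The knockout was present in every cell of the animal, so that no promoter limits it to a cell type. The labels name the cells as neurons, and the study's methods state that nuclei were sorted as a mixture of NeuN-positive and NeuN-negative ones, so shares of non-neuronal nuclei depend on the gate as well as on the tissue. Mice of a pool share a library, so no test between the groups was possible. The 95% intervals below are exact and reflect counting error alone, not the spread between mice. Intervals of levels and of gene ratios also leave out the spread between nuclei, since they take each UMI as independent. They are too narrow where a few nuclei hold most counts.

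Endothelial cells of the brain form the blood-brain barrier: tight junctions seal the gaps between them, caveolar transport is kept low, and nutrients cross by dedicated transporters such as the glucose carrier Slc2a1, while efflux pumps return foreign compounds to the blood. Wnt signals through Fzd4 and the co-activators Adgra2 and Reck maintain this state, and VEGF, angiopoietin, Notch and BMP signals shape the vessel. The cells sit on a basement membrane that they share with pericytes, the mural cells that wrap capillaries, and their genes grade from arteries through capillaries to veins.

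The C57BL/6 library gave 14 endothelial nuclei of 14630 kept and 18311 endothelial counts, the Nav1 KO library 35 of 14056 with 65322 counts, and the BTBR library 21 of 14778 with 27034 counts. Their median UMI count was 845, 1429 and 961 in the same order, against 2076, 2758 and 2514 in all other nuclei, and the range over members was 502 to 6491. The depth of the members is partly set by the rule, since deep nuclei more often hold a UMI of the barred neuronal genes: the 59 nuclei that failed this limit alone had a median of 3832 UMIs (3675, 3758 and 4724 by library). At this depth 1 count is worth 54.6 CPM (counts-per-million of the endothelial total) in C57BL/6, 15.3 in Nav1 KO and 37.0 in BTBR, and a gene with no count in any endothelial nucleus could still be present at up to 27.1 CPM (3 counts of 110667). The deepest nucleus carried 19.1%, 9.94% and 12.2% of a library's endothelial counts. The median mitochondrial share was 1.88%, 1.80% and 2.19%, against 0.528%, 0.387% and 0.386% in other nuclei. Kept barcodes shared between libraries numbered 66, 59 and 55 for the 3 pairs, and none of them was endothelial.

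The endothelial share of kept nuclei was 0.0957% in C57BL/6 (0.0523% to 0.161%), 0.249% in Nav1 KO (0.174% to 0.346%) and 0.142% in BTBR (0.0880% to 0.217%). The Nav1 KO share was the highest, and its interval did not meet that of C57BL/6 but met that of BTBR. The ratio to C57BL/6 was 2.60 for Nav1 KO (1.37 to 5.24) and 1.48 for BTBR (0.720 to 3.16), and both ratios share the C57BL/6 library. Nav1 KO over BTBR was 1.75 (0.992 to 3.17). When nuclei with any UMI of 5 pericyte genes (Rgs5, Pdgfrb, Vtn, Abcc9, Kcnj8) were also barred, 9, 11 and 9 nuclei remained and the Nav1 KO ratio was 1.27 (0.479 to 3.47). The share of other non-neuronal nuclei moved too: mural nuclei were 0.150%, 0.441% and 0.372% of kept nuclei, astrocytes 1.31%, 2.82% and 1.96%, fibroblasts 0.513%, 0.839% and 0.582%, microglia 0.280%, 0.484% and 0.203%, and oligodendrocytes 1.96%, 1.59% and 1.21%. Nuclei that met more than 1 of these classes were left out, while endothelial nuclei that met one were kept. This left out 22, 120 and 91 mural nuclei and kept 22, 62 and 55, and left out 49, 161 and 106 fibroblast nuclei. The class shares and the values below thus depend on that choice, and unevenly by library. For every 100 mural nuclei there were 63.6 endothelial nuclei in C57BL/6 (30.1 to 130), 56.5 in Nav1 KO (36.2 to 86.8) and 38.2 in BTBR (21.9 to 64.2), and the intervals overlapped. For every 100 oligodendrocyte nuclei there were 4.88 (2.63 to 8.32), 15.7 (10.7 to 22.5) and 11.7 (7.09 to 18.5), and the intervals of C57BL/6 and Nav1 KO did not meet. The values per 100 astrocytes were 7.33, 8.82 and 7.27, per 100 fibroblasts 18.7, 29.7 and 24.4, and per 100 microglia 34.1, 51.5 and 70.0, each with C57BL/6 and Nav1 KO intervals that overlapped, so of the 5 classes only oligodendrocytes gave intervals apart. Whether the sort, the dissection or the genotype set these shares cannot be told apart with 1 library per group.

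**Figure D1:**
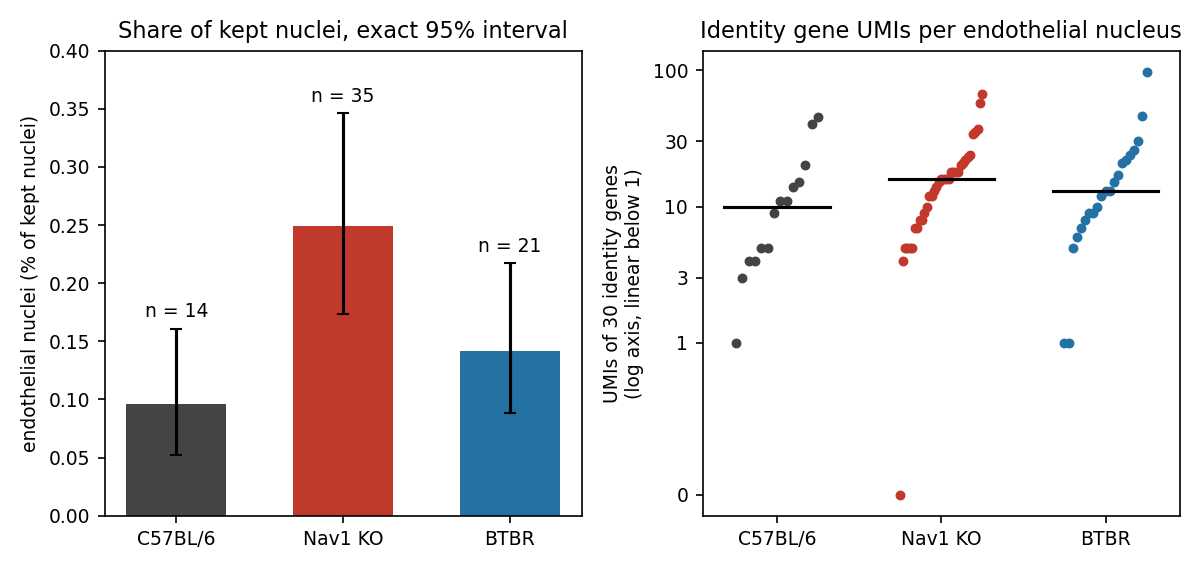
Left, endothelial nuclei as a percentage of kept nuclei in each library, bars with exact 95% binomial intervals and the number of nuclei above. Right, UMIs of the 30 identity genes in each endothelial nucleus, sorted within a library (position has no further meaning), with the median as a line; the medians were 10, 16 and 13, and 1 Nav1 KO nucleus held none.

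Nav1 was sparse in these nuclei. It had 7 counts in C57BL/6 (382 CPM), 6 in Nav1 KO (91.9 CPM) and 3 in BTBR (111 CPM), in 13 nuclei in all, and its pooled level of 145 CPM lay below the 245 CPM of all other nuclei. These counts check the labels only weakly: the reagents capture the 3′ end of a transcript and the deletion lies in exon 1, so that reads outside the deleted part can remain. The other navigators were also lower than in the rest of the cortex, with Nav2 at 145 CPM against 414 CPM and Nav3 at 63.3 CPM (7 counts, all in Nav1 KO) against 409.5 CPM.

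Among the rule genes, Flt1, a decoy receptor for VEGF, had 65, 132 and 98 counts in C57BL/6, Nav1 KO and BTBR, or 3550, 2021 and 3625 CPM. Cldn5, the main tight junction claudin of brain endothelium, had 2294, 1960 and 2182 CPM in 56 of the nuclei, and the organic anion carrier Slco1a4 had 1475, 1347 and 2626 CPM in 59. In counts-per-million, Cldn5 was level across the libraries while Flt1 was lowest in Nav1 KO and Slco1a4 highest in BTBR. The rule used these genes and another scaling of the libraries would move their levels, so this order is a description. The adhesion molecule Pecam1 was found in 25 nuclei (334 CPM pooled) and Nostrin, which binds endothelial nitric oxide synthase, in 15 (181 CPM). The sum of the rule genes had a median of 7.5 UMIs and ran from 3 to 69.

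The members near the limit were the least secure. The 8 nuclei with 2 rule UMIs, just outside, had 1046 CPM of the identity list (585 to 1724), and the 5 with 3 UMIs, just inside, had 1775 CPM (917 to 3100). The 5 with 4 UMIs had 9429 CPM, the 34 with 5 to 9 had 7074 CPM, and the 26 with at least 10 had 16708 CPM. Nuclei just outside and just inside the limit thus had overlapping intervals, and the level was higher from 4 UMIs on. The neuron list stood at 39172 CPM at 2 UMIs, 21742 CPM at 3, 7119 CPM at 4, 15659 CPM at 5 to 9 and 8797 CPM at 10 or more, so it was highest just outside the limit and uneven inside it. Of 233 nuclei with at least 3 rule UMIs, 177 held a Flt1 UMI, 129 of these had no fibroblast UMI, and 59 of those were left out for a Slc17a7, Gad1 or Gad2 UMI.

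Many genes differed in level between endothelial nuclei and the rest of the cortex. Over 7912 genes with a mean of at least 20 CPM over the pair of groups, 1613 were at least 2-fold higher in endothelial than in all other nuclei (20.4%), 654 in each of the 3 libraries (8.27%), and 1271 were at least 2-fold lower (16.1%). The median fold was 1.04, and all folds here have 5 CPM added to both sides, which understates low genes. Without the genes of the rule the counts were 1608 higher, 649 of them in each library, and 1268 lower of 7904. These counts describe nuclei picked by endothelial RNA and carry no test. A gene that is near 0 elsewhere reaches the level minimum only if endothelial nuclei hold it, so list counts among genes that reached it are no support, and medians below are over all genes of a list.

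The identity list held 30 genes, and all 30 were at least 2-fold higher pooled (28 of them reached the level minimum, and 27 were higher in each library), with a median fold of 37.0. Its summed level was 10212 CPM in C57BL/6, 9415 CPM in Nav1 KO and 14500 CPM in BTBR, against 111 CPM in all other nuclei. The BTBR nuclei were the highest and their interval (13100 to 16009) lay above those of the other two, but 97 of their counts came from 1 nucleus. Without the richest nucleus of each library the levels were 9140 CPM (7699 to 10773), 8750 CPM (8033 to 9514) and 12391 CPM (11017 to 13888). Without the 3 richest of each they were 6376, 8543 and 10401 CPM, and the BTBR interval (9069 to 11873) met that of Nav1 KO (7775 to 9366). Mural nuclei had 590 CPM of it, microglia 235, astrocytes 133 and oligodendrocytes 83.1. The least abundant identity genes were the transcription factors Sox7 and Tal1, with 2 counts each, and Cd93, a lectin-like surface receptor, had none in C57BL/6.

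Outside the rule genes, the 15 genes with the highest fold that were found in at least 10% of endothelial nuclei were led by Ly6c1 and Ly6a, surface proteins of the Ly6 family. Ly6c1 had 23, 97 and 66 counts in C57BL/6, Nav1 KO and BTBR, or 1256, 1485 and 2441 CPM, against 2.85 CPM in other nuclei, a pooled fold of 215. Ly6a had 601, 1225 and 1110 CPM and a fold of 156. The Ly6 family has near-identical copies, so the split of reads between them is uncertain. Rgs5, a regulator of G-protein signalling usually counted as a pericyte gene, came next with 1038, 1041 and 1960 CPM and a fold of 142. Cxcl12, a chemokine of capillary endothelium, had 1857, 1761 and 3884 CPM, and its BTBR level stood above both others. Pltp, a phospholipid transfer protein, had 710, 1332 and 1776 CPM with a fold of 119, and Igfbp7, a secreted binding protein of the vessel wall, 437, 1271 and 1406 CPM with a fold of 82.5.

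The other leading genes were less abundant, at 822 CPM or below pooled. Ptprb, the phosphatase that holds back the Tie2 receptor, had 1038, 475 and 1443 CPM, and Itm2a, a membrane protein, 983, 520 and 1443 CPM. Both were lowest in Nav1 KO. Kdr, the main VEGF receptor, had 218, 321 and 555 CPM, a fold of 58.8. The adhesion receptors Adgrl4 and Adgrf5 had pooled levels of 325 and 316 CPM, the transcription factors Mecom and Epas1 307 and 488 CPM, Cyyr1 352 CPM and Ctla2a 334 CPM, and the folds of these genes lay between 53.4 and 62.8. In all other nuclei each of the 15 genes was at or below 12.4 CPM. Mural and fibroblast nuclei are few among these, and some genes were higher there, though below their endothelial level. Mural nuclei had 482 CPM of Igfbp7, 363 of Rgs5, 280 of Cxcl12 and 113 of Pltp, and fibroblast nuclei 151 CPM of Cxcl12. Adgrl4 was at 0 in both. The folds thus do not give the contrast with other cells of the vessel wall.

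**Figure D2:**
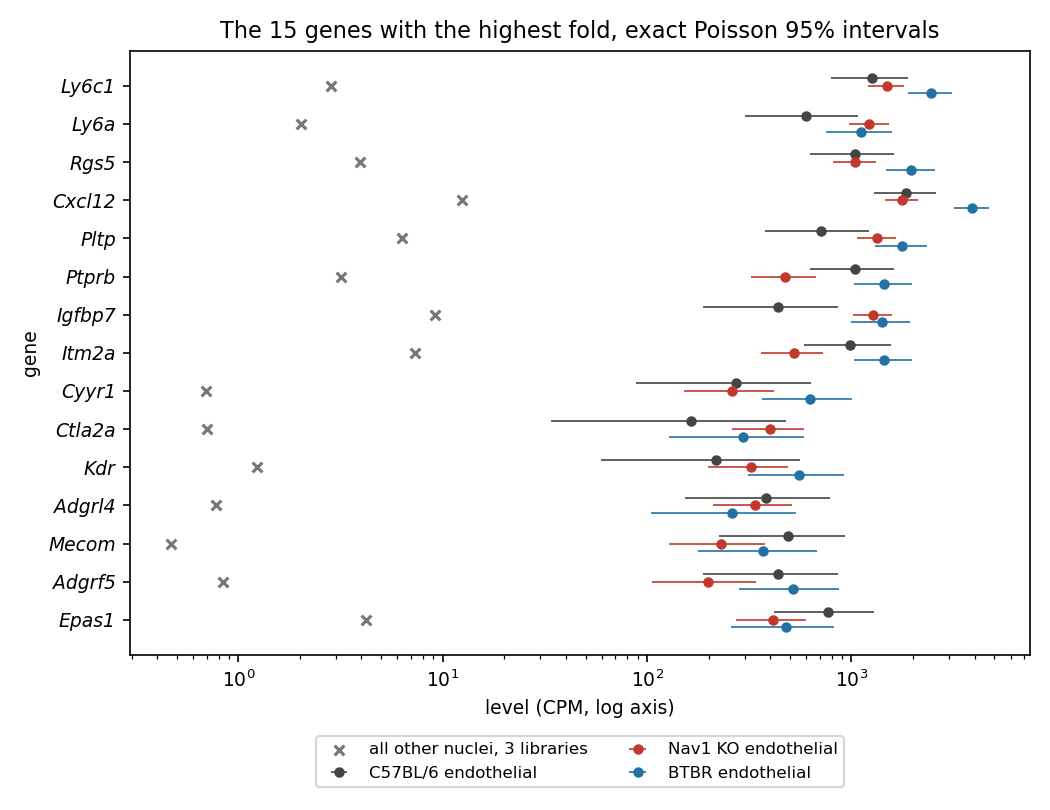
Level in CPM (log axis) of the 15 genes with the highest fold, with exact Poisson 95% intervals, in the endothelial nuclei of each library and, as crosses, in all other nuclei. For each gene the endothelial points lie far to the right of the cross, and those of the 3 libraries mostly overlap; Cxcl12 in BTBR (3884 CPM) stands to the right of the other libraries.

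Free RNA in droplets gives every nucleus some UMIs of genes it does not express, so shares of nuclei with a UMI were set beside classes that should lack the gene. After thinning each nucleus to 500 UMIs, Slc2a1 was found in 32.9% of endothelial nuclei (23 of 70, 22.1% to 45.1%), against 0.719% of 139 microglia and 1.02% of 689 oligodendrocytes. Ly6c1 was found in 45.7%, 0.719% and 0% of the same classes (0 of 689, which allows up to 0.435%), and Cxcl12 in 58.6%, 0.719% and 0.435%. Without thinning, the endothelial shares were 55.7% for Slc2a1, 67.1% for Ly6c1 and 70.0% for Cxcl12, at a median of 1135 UMIs against 888 in microglia and 1162 in oligodendrocytes. The neuronal transcript Snap25 went the other way: 10.0% of endothelial nuclei, 21.6% of microglia and 14.5% of oligodendrocytes had a UMI of it after thinning, so its endothelial share did not exceed that of the glial classes.

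The promoters of leading genes are shown because these genes were high together, with GGAA, the core of the sites bound by ETS transcription factors, searched in them. Each runs from 250 bases before to 50 after the start of transcription, 5′ to 3′ on the gene's strand, from RefSeq on GRCm38.p6, with GGAA on either strand in capitals. Of the 4 genes of highest fold, Ly6c1, Rgs5 and Cxcl12 are in the table used and Ly6a is not.
Ly6c1 (chr15:75048788-75049087, minus strand): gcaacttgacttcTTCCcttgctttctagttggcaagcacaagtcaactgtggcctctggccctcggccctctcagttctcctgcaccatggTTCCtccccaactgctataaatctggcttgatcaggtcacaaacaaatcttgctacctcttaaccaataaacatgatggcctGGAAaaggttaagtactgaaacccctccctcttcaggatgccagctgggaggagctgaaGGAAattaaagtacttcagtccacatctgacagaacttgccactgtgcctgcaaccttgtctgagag
Rgs5 (chr1:169655251-169655550, plus strand): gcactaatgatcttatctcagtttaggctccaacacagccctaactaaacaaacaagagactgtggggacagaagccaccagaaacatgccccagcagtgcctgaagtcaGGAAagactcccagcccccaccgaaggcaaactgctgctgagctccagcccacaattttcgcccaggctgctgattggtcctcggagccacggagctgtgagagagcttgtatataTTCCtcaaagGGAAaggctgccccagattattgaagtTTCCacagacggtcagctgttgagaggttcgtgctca
Cxcl12 (chr6:117168285-117168584, plus strand): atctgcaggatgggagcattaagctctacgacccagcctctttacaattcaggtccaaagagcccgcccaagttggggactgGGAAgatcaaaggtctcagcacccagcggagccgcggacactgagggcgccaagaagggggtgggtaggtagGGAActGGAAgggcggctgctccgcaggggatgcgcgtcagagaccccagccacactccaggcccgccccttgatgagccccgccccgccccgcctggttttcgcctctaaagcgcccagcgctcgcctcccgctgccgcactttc
These hold 4, 4 and 3 copies of GGAA and none holds AGGAAG, a longer form that contains GGAA. Of 27025 promoters of the same length in the table, 1 per gene, 95.9% held GGAA and 35.1% held AGGAAG. Of the 12 leading genes with a promoter, all 12 held GGAA and 5 held AGGAAG, and of 16 identity genes with one, 16 and 10 did. Nearly every promoter in the table holds GGAA, and a match is a description and not a bound site.

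Of 25 transporter genes, 22 reached the level minimum, 20 were at least 2-fold higher and 17 were so in each library, with a median fold of 9.25 over all 25. The summed level was 8246 CPM in C57BL/6, 6721 in Nav1 KO and 9876 in BTBR, against 961 CPM in other nuclei. The taurine carrier Slc6a6 was the most abundant at 1802, 1194 and 2071 CPM (fold 6.27), followed by the thyroid hormone carrier Slco1c1 at 1147, 842 and 1554 CPM (fold 48.6). Slc2a1, the glucose carrier, had 546, 811 and 703 CPM (fold 42.8), and the transferrin receptor Tfrc, which brings in iron, 710, 674 and 740 CPM (fold 4.32). The intervals of the 3 libraries overlapped for Slc2a1 and Tfrc.

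Slc7a1, the carrier of cationic amino acids, had 328, 260 and 1073 CPM (6, 17 and 29 counts) and was highest in BTBR. It had enough counts for the comparison of BTBR with C57BL/6 below only through BTBR. That favoured a higher level there, so this order is a description. Slc7a5, which carries large neutral amino acids, had 382, 321 and 185 CPM. The efflux pumps Abcb1a and Abcg2 had 371 and 352 CPM pooled (folds 42.4 and 17.3). Mfsd2a, the lipid carrier that holds down caveolar transport, had 172 CPM (fold 18.2). Carriers of the list that were not 2-fold higher among those at the level minimum were Slc1a1 and Lrp8 (folds 1.41 and 1.49).

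Of 13 junction genes, 10 reached the level minimum and 9 were at least 2-fold higher, with a median fold of 4.91. Esam and Cgnl1, an adhesion molecule and a junction scaffold, had the highest folds (44.0 and 22.6) at 325 and 316 CPM. Ocln, the second transmembrane protein of tight junctions, had 0, 8 and 4 counts (0, 122 and 148 CPM). VE-cadherin, Cdh5, the main adherens junction protein of endothelium, was low, with 1, 5 and 10 counts. Tjp1 had 437, 214 and 148 CPM (fold 2.79), and Afdn, a junction scaffold and the most abundant of the list at 614 CPM, had a fold of 1.24. Marveld2, a protein of junctions where 3 cells meet, was at 0. Of 7 caveolar genes, 5 reached the level minimum and were at least 2-fold higher (median fold 6.65): Cav1 had 6 counts (54.2 CPM) and Cav2 17 (154 CPM) among them. Plvap, the diaphragm protein of leaky vessels, was at 0.

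**Figure D3:**
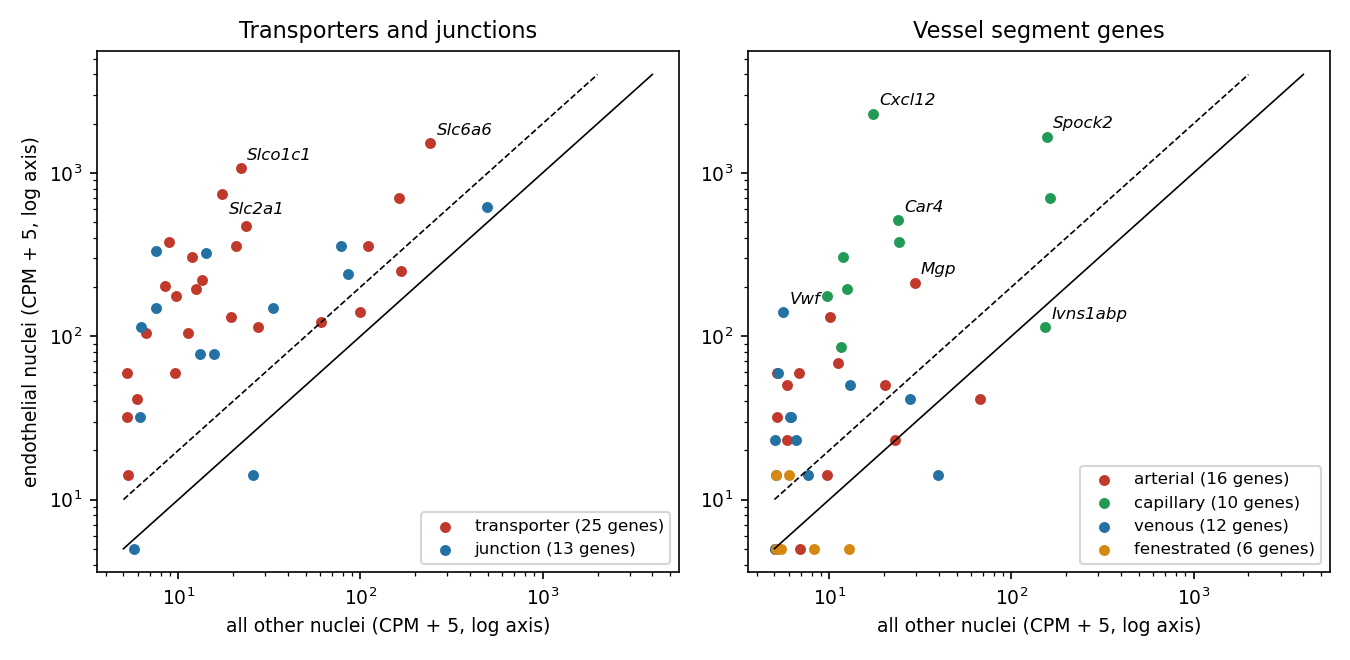
Pooled level in endothelial nuclei (y) against all other nuclei (x) for the transporter and junction lists (left) and for vessel segment lists (right), each as CPM + 5 on log axes, 1 point per gene. The solid line is equal level and the dashed line 2-fold; of the capillary genes only Ivns1abp lies below the dashed line, and the fenestrated genes lie at the bottom left.

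Signalling genes of the vessel were mostly low in count. In the VEGF and angiopoietin list, outside Flt1, receptors were high and ligands were not: Kdr, Tek, Tie1 and Ptprb had folds of 58.8, 43.4, 16.4 and 98.8, while Vegfa (118 CPM, fold 1.36) was at 582 CPM in astrocytes, and Angpt1 and Pgf were at 0. Of its 17 genes, 7 of 10 at the level minimum were at least 2-fold higher and the median fold was 2.74. In the Wnt list, the target genes Lef1 (492, 199 and 555 CPM), Apcdd1 (710, 413 and 592 CPM) and Axin2 (54.6, 153 and 444 CPM) were the most abundant with the barrier factor Foxq1 (109, 260 and 444 CPM). The receptor Fzd4 had 5 counts and its co-activators Adgra2 and Reck 14 and 2, and 10 of the 11 genes at the level minimum were at least 2-fold higher, with a median fold of 6.01 over all 15.

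The BMP target genes Id1 and Id3 had 705 and 596 CPM (folds 50.4 and 15.3), and the BMP receptor Acvrl1 289 CPM (fold 43.0), within a list of 14 of which 9 of 11 at the level minimum were at least 2-fold higher (median fold 3.83). In the Notch list, Notch1 had 172 CPM (fold 9.57) and Jag2 199 CPM (fold 3.47), and 7 of 7 genes at the level minimum were at least 2-fold higher, with a median fold of 4.99 over all 8. Among 23 transcription factors, 17 of 21 at the level minimum were at least 2-fold higher and the median fold was 13.8. The flow-responsive Klf2 had 328, 566 and 703 CPM (fold 51.9). Ets1 had 271 CPM, Gata2 had 0, 7 and 4 counts, and Tcf4, shared with neurons, had 1139 CPM at a fold of 1.32.

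The segment lists differ in abundance in every class, so shares of nuclei with a UMI were read only against other classes. At 500 UMIs per nucleus, the capillary list was found in 87.1% of endothelial nuclei, 53.2% of microglia and 18.6% of oligodendrocytes. The arterial list was found in 27.1%, 5.04% and 8.42% of these classes and in 26.6% of mural nuclei, and the venous list in 17.1%, 12.9% and 3.48% and in 19.4% of mural nuclei. Without thinning, 68, 34 and 29 of the 70 endothelial nuclei held a capillary, an arterial and a venous UMI, and 16 held both of the last. The summed capillary level was 6444, 5817 and 7694 CPM, that of the 16 arterial genes 710, 689 and 740 CPM, and that of the 12 venous genes 218, 352 and 592 CPM. The arterial list stood at 705 CPM pooled in endothelial nuclei, 738 CPM in mural and 243 CPM in fibroblast nuclei, and the venous list at 389, 566 and 700 CPM, so neither was highest in endothelial nuclei. Of the arterial genes 7 of 8 at the level minimum were at least 2-fold higher than in all other nuclei (median fold over all 16, 3.19), and of the venous ones 3 of 5 (median fold over all 12, 3.69). Spock2 and Car4, a matrix proteoglycan and a carbonic anhydrase, had 1663 and 506 CPM beside Cxcl12, and 9 of 10 capillary genes were at least 2-fold higher (median fold 15.5), all but Ivns1abp, which had 108 CPM against 148 CPM in other nuclei. The artery markers Bmx, Gja5, Cytl1 and Fbln5 and the vein marker Lcn2 were at 0, and the arterial level was led by Mgp (208 CPM), which mural nuclei held at 334 CPM. The venous level was led by Vwf, the clotting factor carrier, at 136 CPM. Of 6 genes of fenestrated endothelium, Plvap, Esm1, Exoc3l2 and Igfbp3 were at 0 and Cd24a and Aplnr had 1 count each. The lists are of unequal abundance, so their levels do not give the numbers of arterial, capillary and venous cells.

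Class I antigen presentation and interferon genes were high in all 3 libraries. Of 9 genes, 8 reached the level minimum, 8 were at least 2-fold higher and 7 were so in each library, and the median fold was 15.2. Ly6e had 655, 1118 and 1184 CPM, the class I genes H2-D1 and H2-K1 had 437, 674 and 222 CPM and 492, 520 and 222 CPM, and the membrane protein Ifitm3 had 218, 459 and 222 CPM. H2-D1 and H2-K1 are near-identical and vary between strains, so their reads may be split or lost. Of 14 basement membrane genes 10 of 11 at the level minimum were at least 2-fold higher (median fold 5.15), led by Sparc (452 CPM) and the integrin Itga1 (334 CPM), and Itga6 had 7, 29 and 0 counts. Of 8 immediate early genes 2 of 5 at the level minimum were at least 2-fold higher and the median fold was 1.04. Ier2 had 172 CPM (fold 13.5) and Jun 136 CPM (fold 3.94), while Fosb and Atf3 were at 0 and Fos had 2 counts.

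Markers of other cells were present in the endothelial nuclei to different degrees. The 15 mural genes summed to 2785 CPM in C57BL/6, 3001 in Nav1 KO and 3625 in BTBR, against 5997 CPM in mural nuclei and 102 CPM in all other nuclei. In C57BL/6, 37 of the 51 counts came from 1 nucleus, and the level without it was 901 CPM (493 to 1512), while leaving out the richest nucleus gave 2482 CPM in Nav1 KO and 2633 CPM in BTBR. Without the 3 richest nuclei, which held 49 of the 51 C57BL/6 counts, the levels were 151 CPM (18.2 to 544), 1658 CPM and 1382 CPM. Of these 15 genes, 7 reached the level minimum and all 7 were at least 2-fold higher (median fold over all 15, 5.42); the most abundant was Vtn at 1274 CPM, and Acta2, Anpep and Ebf2 were at 0. The 10 microglia genes summed to 208 CPM against 8584 CPM in microglia, with C1qa, Tmem119 and Dock2 at 0, and 17 of the 23 counts came from 1 Nav1 KO nucleus. All 5 genes of perivascular macrophages were at 0. Genes of fibroblasts, oligodendrocyte precursors and blood summed to 235, 117 and 36.1 CPM, against 196, 90.8 and 7.80 CPM in all other nuclei. The 9 oligodendrocyte genes summed to 601, 306 and 1480 CPM, and Mbp carried 19 of the 40 BTBR counts in 3 nuclei. The 10 astrocyte genes summed to 2075, 3154 and 2182 CPM against 9995 CPM in astrocytes. Of the 70 nuclei, 21 also met the limit for mural nuclei (2, 12 and 7 by library), 6 that for astrocytes, 4 that for oligodendrocytes and 1 that for microglia.

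Every endothelial nucleus held a UMI of a list of 11 neuron genes. This rests largely on Meg3, which was found in 14, 35 and 20 nuclei by library. Snap25 was found in 6 C57BL/6 and 11 Nav1 KO nuclei. Whether Meg3 in these nuclei came from neurons was not tested. The 11 neuron genes summed to 22882 CPM in C57BL/6, 10517 in Nav1 KO and 11615 in BTBR, against 43230 CPM in all other nuclei. In C57BL/6, 313 of the 419 counts came from 3 nuclei. Without the 3 richest nuclei of each library, a choice made after the values were seen, the levels were 10041 CPM (8221 to 12144), 7430 CPM (6707 to 8209) and 8550 CPM (7350 to 9890), and those of C57BL/6 and BTBR overlapped. Astrocyte nuclei had 9839 CPM of it, mural 16342, oligodendrocytes 19783 and microglia 20666, and the endothelial level of 12831 CPM lay within this range. It was led by the long non-coding RNAs Meg3 (12998, 5067 and 5660 CPM) and Snhg11 (7482, 3965 and 4661 CPM). In all, 9 of the 11 genes were at least 2-fold lower than in other nuclei, which is partly built in, since the rule bars UMIs of Slc17a7, Gad1 and Gad2: without this limit the list stood at 25653 CPM. The part of free RNA or of joined nuclei in these levels was not tested.

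**Figure D4:**
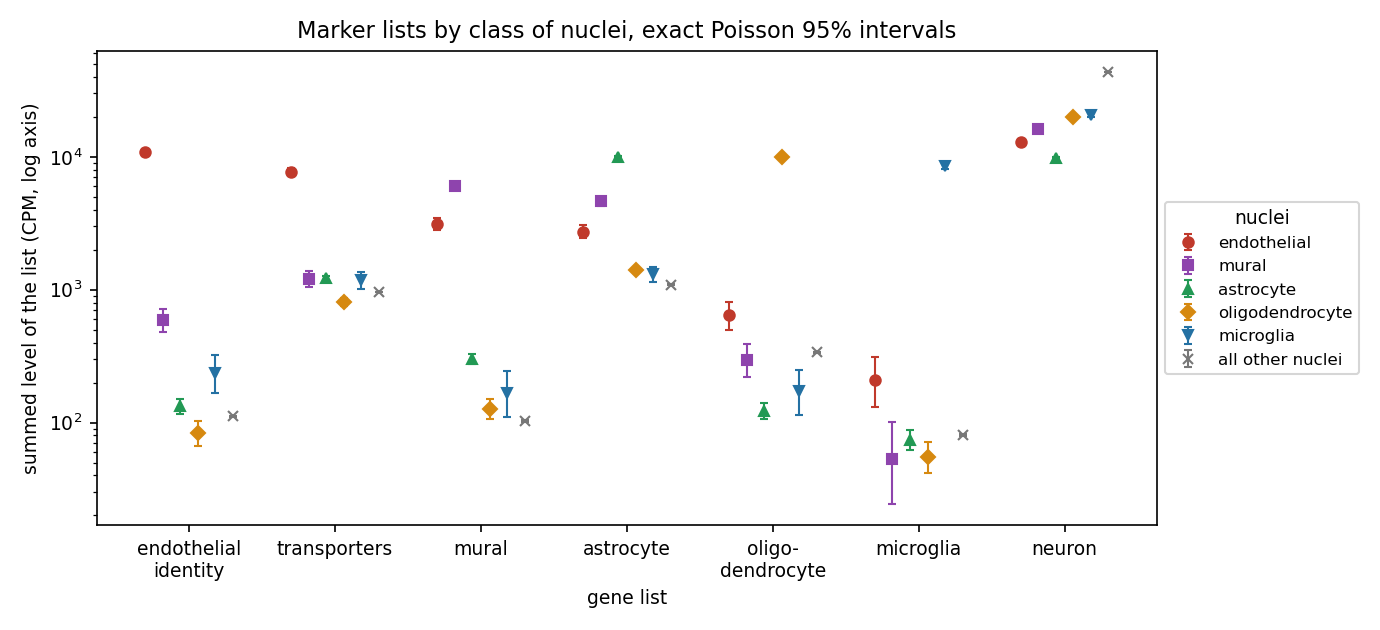
Summed level in CPM (log axis) of 7 gene lists, pooled over the 3 libraries, in endothelial nuclei, 4 classes of non-neuronal nuclei and all other nuclei, with exact Poisson 95% intervals. Endothelial nuclei are highest for identity genes (10789 CPM) and transporters (7744 CPM), second to mural nuclei for mural genes (3117 against 5997 CPM), and among the lower classes for neuron genes.

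The members fell along a range of mural UMIs. No UMI of Rgs5, Pdgfrb, Vtn, Abcc9 or Kcnj8 was found in 29 nuclei (9, 11 and 9 by library), 1 or 2 in 20 (3, 12 and 5), and 3 or more in 21 (2, 12 and 7). The identity list stood at 8579 CPM, 6603 CPM and 15722 CPM in these groups, so it was not lower in the nuclei with most mural UMIs. Median depth was 886, 1320 and 1638 UMIs, and a deeper nucleus is more likely to hold a mural UMI.

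Rgs5 and Vtn were held by partly different nuclei. Vtn, vitronectin, the most abundant pericyte gene here, was found in 15 of the 70 nuclei. Rgs5 was found in 36 nuclei, and in 18 of them (3, 9 and 6 by library) no other gene of the 15 mural ones had a UMI. In those 18 nuclei, a split made after the values were seen, the identity list stood at 16787 CPM; their Rgs5 level of 2896 CPM (2274 to 3635) is raised by the choice of nuclei that hold it and was not compared. Over all 70 endothelial nuclei Rgs5 stood at 1265 CPM (1064 to 1493), against 363 CPM in mural nuclei (278 to 467). In the 15 nuclei with Vtn the identity list stood at 8459 CPM and the mural list, which holds Vtn, at 6515 CPM. After thinning, Rgs5 was found in 32.9% of endothelial and 15.1% of mural nuclei, and Vtn in 15.7% and 82.0%. Mural nuclei were chosen partly on these genes, so their levels there are a description.

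**Figure D5:**
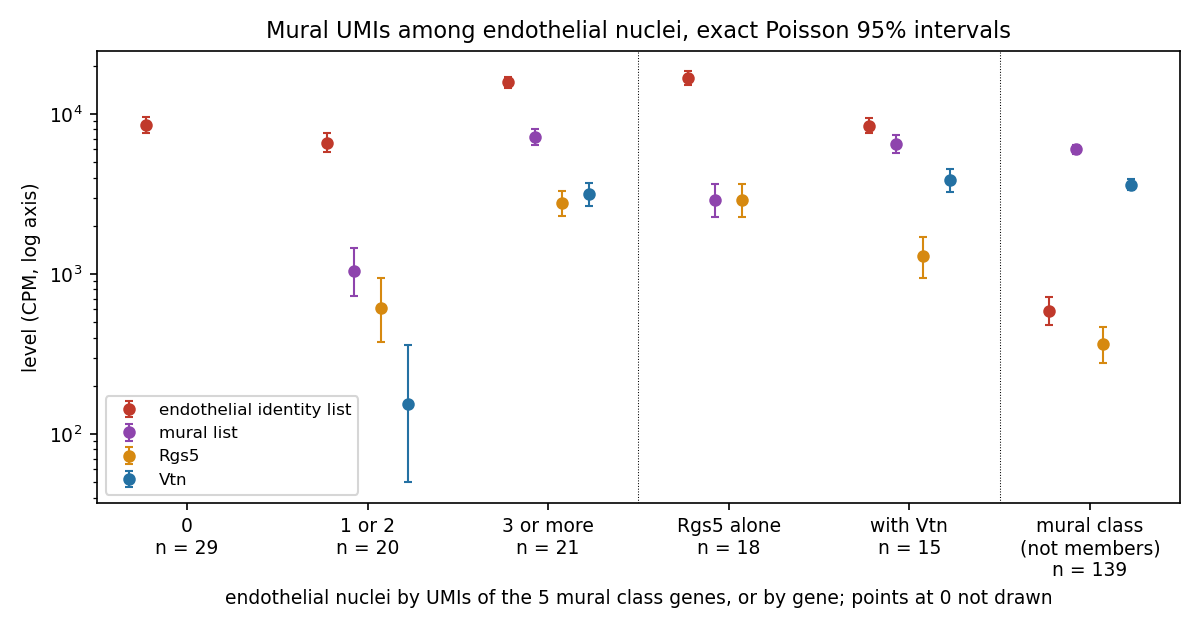
Level in CPM (log axis) of the endothelial identity list, the mural list, Rgs5 and Vtn with exact Poisson 95% intervals, in endothelial nuclei grouped by UMIs of the 5 mural class genes, in those with Rgs5 as the sole mural gene, in those with Vtn, and in mural nuclei that are not members. The identity level was 15722 CPM at 3 or more mural UMIs and 16787 CPM with Rgs5 alone, and 590 CPM in mural nuclei.

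Between Nav1 KO and C57BL/6 endothelial nuclei, 398 genes had at least 20 counts over both libraries, and 75 of them (18.8%) differed by at least 2-fold with 20 CPM added to both sides, 36 higher and 39 lower in Nav1 KO. The median fold was 0.925, and the exact interval of the ratio, which does not include the spread between nuclei, left out 1 for 46 genes. The split rests on the scaling. A trimmed mean of M values scales a library by a trimmed average ratio, here of genes with a count in both libraries, in place of its total. With it the median log2 fold moved from -0.11 to 0.59, and 116 genes were higher and 4 lower (120 in all, 30.2%). The median fold thus moved further from 1 (0.925 to 1.51). A gene enters that average only from 54.6 CPM in C57BL/6 but from 15.3 CPM in Nav1 KO, which raises Nav1 KO folds. The part of this in the shift was not tested, and neither scale is taken as the right one. Counting 1 library at a time, 252 of the 398 genes reached 20 counts in Nav1 KO and 40 in C57BL/6, and a gene can be in both numbers. Of 14 identity genes with enough counts, 5 passed 2-fold: Ly6a was higher (fold 2.01, ratio interval 1.08 to 4.25), and Ptprb was lower (0.468, interval 0.25 to 0.857), as were Adgrf5, Mecom and Podxl, whose intervals held 1, but with the trimmed mean of M values none of these 4 passed 2-fold (folds of 0.761 to 0.795) and the Ptprb interval (0.414 to 1.42) held 1. On that scale 4 of the 14 were higher (Esam, Kdr, Ly6a and Sox18) and none lower. The intervals of Esam (0.910 to 8.03), Kdr (0.821 to 9.75) and Sox18 (0.916 to 16.2) held 1. All 4 had 11 counts or fewer in C57BL/6 and reached 20 in Nav1 KO. The minimum thus favoured a higher level there, and these folds are a description. Outside the rule genes, 0 of 9 transporter genes with enough counts passed 2-fold, 1 of 5 junction genes (Afdn, fold 2.11), 1 of 6 capillary genes (Car4, 2.00) and 1 of 2 Wnt genes (Lef1, 0.428). With the trimmed mean of M values 3 transporters were higher, Slc2a1 (fold 2.40, interval 1.24 to 5.41), and Abcg2 and Slc3a2 (2.63 each, with intervals that held 1). So were 3 junction genes and 1 capillary gene, and neither Wnt gene passed 2-fold (Lef1, 0.682). Each of these higher genes had 10 counts or fewer in C57BL/6 and reached 20 in Nav1 KO. The minimum favoured this direction for them too, so their folds and intervals are a description. In counts-per-million, the ratio intervals of Afdn (0.861 to 7.11), Car4 (0.813 to 6.76) and Lef1 (0.160 to 1.07) held 1, and so did those of Slc2a1 (0.748 to 3.28) and Cxcl12 (0.642 to 1.43), so changes within these intervals could not be told from none at this depth on this scale.

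The 5 genes with the highest fold in Nav1 KO were Apod, Meis2, Auts2, Ptgds and Pglyrp1. Each had 2 counts or fewer in C57BL/6 and reached the minimum of 20 through the deeper Nav1 KO library (65322 against 18311 counts), so each had to be higher there, and their bounds are a description that supports nothing. Apod, a lipid carrier of the lipocalin family, had 30 counts in 10 nuclei in Nav1 KO and none in C57BL/6, at least 2.80-fold higher when the C57BL/6 library is set at 3 counts (the exact interval of the ratio, which also counts the error of the 30, began at 2.14), and the transcription factor Meis2 had 29 in 10 nuclei and none, at least 2.71-fold higher on the same basis (exact interval from 2.07). Ptgds, prostaglandin D synthase of meningeal and choroid cells, had 842 against 109 CPM, and Apod and Ptgds were also higher in all other nuclei of that library (folds 2.72 and 3.53). Pglyrp1, a peptidoglycan recognition protein of brain endothelium, had 750 against 109 CPM (49 and 2 counts, ratio interval 1.80 to 58.3), and its fold in other nuclei was 0.789. Auts2 had 520 against 54.6 CPM. In all other nuclei Meis2 stood at 509 CPM in Nav1 KO and 382 CPM in C57BL/6, and Auts2 at 927 and 794 CPM, each above its endothelial level in the same library. The lowest were Rpl21, Itih5, Gria3, AY036118 and Ube3a, with folds of 0.237 to 0.308. They are the extremes of the 398 genes and a description too. Rpl21, Itih5 and Gria3 rest on 10, 9 and 10 counts in Nav1 KO and 13, 11 and 12 in C57BL/6. With the trimmed mean of M values Ube3a did not pass 2-fold (fold 0.503) and the Itih5 interval (0.139 to 1.006) held 1. AY036118 had 1439 against 5407 CPM and was lower in other nuclei too (fold 0.440). Named after their values were seen, the abundant transcript Gm42418 had 4470 against 10212 CPM (fold in other nuclei 0.850) and Malat1, a nuclear long non-coding RNA, 291923 against 182568 CPM (1.19), and the part of these transcripts in the other folds was not tested. Ube3a had 43 and 40 counts, and its 40 C57BL/6 counts came from 5 nuclei. Gria3 and Ube3a are abundant in neurons, and the neuron list stood at 10517 CPM in Nav1 KO against 22882 CPM in C57BL/6, or 7430 and 10041 CPM without the 3 richest nuclei of each; the part of neuronal RNA in these results was not tested.

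Between BTBR and C57BL/6 endothelial nuclei, which again share the C57BL/6 library, 154 genes had enough counts and 29 (18.8%) passed 2-fold, 15 higher and 14 lower, with a median fold of 1.06. With the trimmed mean of M values 25 were higher and 6 lower (20.1% in all), and the median log2 fold moved from 0.08 to 0.39. The limit of that scaling given above for unequal depth holds here too. Counting 1 library at a time, 73 of the 154 genes reached 20 counts in BTBR and 40 in C57BL/6. The highest were Ablim1, an actin-binding protein (1184 against 273 CPM, ratio interval 1.68 to 14.3), the myelin gene Mbp (19 counts in 3 nuclei against 3 in 1), Slc7a1 (1073 against 328 CPM, interval 1.34 to 9.64), Igfbp7 (1406 against 437 CPM, interval 1.48 to 7.98) and Afdn. Each had 8 counts or fewer in C57BL/6 and reached the minimum of 20 through the deeper BTBR library (27034 against 18311 counts). The minimum thus favoured a higher level there, and the intervals of these 5 genes are a description that supports nothing. Cxcl12 was also past 2-fold (fold 2.08, interval 1.41 to 3.18) and was found in 16 BTBR and 9 C57BL/6 nuclei. A single BTBR nucleus held 55 UMIs of the capillary list, which contains Cxcl12, and its part in this fold was not tested. Of 8 identity genes with enough counts only Cyyr1 was past 2-fold (fold 2.21, interval 0.816 to 7.98), while Cyyr1, Ly6a and Ly6c1 were with the trimmed mean of M values. The lowest were Ube3a, AY036118, Rian, Syt1 and Slc1a2, with folds of 0.227 to 0.356, and as extremes of the 154 genes they are a description too. Rian, Syt1 and Slc1a2 rest on 6, 8 and 7 counts in BTBR and 14, 18 and 14 in C57BL/6. With the trimmed mean of M values the intervals of Rian (0.114 to 1.003) and Slc1a2 (0.144 to 1.12) held 1. AY036118 was lower in other nuclei too (fold 0.414), Gm42418 had 4698 against 10212 CPM and Malat1 220204 against 182568 CPM. Syt1, Rian and Ube3a are abundant in neurons, and the summed neuron level beside them was 11615 CPM in BTBR and 22882 CPM in C57BL/6, or 8550 and 10041 CPM without the 3 richest nuclei of each; its part in the result was not tested.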

How the data were processed

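Nuclei were captured with a 3′ droplet kit, and the counts deposited by the authors are whole UMI numbers, not normalized, in 1 matrix for each of the 3 libraries. The submitters' processing notes name Cell Ranger 6.0.0 and the mm10 build. Deposited barcodes numbered 15402, 14623 and 15238 for C57BL/6, Nav1 KO and BTBR. The limits on genes (200) and mitochondrial counts (10%) left 14630, 14056 and 14778; the series text gives the same numbers for the first pair and the barcode total for BTBR. The members and gene lists were chosen with earlier results of these data known. No doublet caller was run, and nuclei with UMIs of other cell types were kept and counted.

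Within each library a gene's UMIs were added up across endothelial nuclei and scaled by their total to CPM, with exact Poisson intervals. Shares have exact Clopper-Pearson intervals, and ratios exact intervals from the binomial split, all at 95%. Comparison classes (mural, fibroblast, microglia, astrocyte, oligodendrocyte) needed at least 3 UMIs of their genes and no Slc17a7, Gad1 or Gad2 UMI, and nuclei in more than 1 class were left out. Endothelial nuclei that met a class limit stayed endothelial and were not counted in the class. Promoters came from RefSeq on GRCm38.p6. Named genes were the rule genes, genes of the lists, the 15 with the highest pooled fold found in at least 10% of endothelial nuclei and at least 2-fold higher in each library (511 qualified), the 5 highest and 5 lowest between libraries, and Nav1. With 1 library per group no test was run. The fold functions were tested on simulated data. Alternatives changed the rule, the offset, the level minimum, the scaling and the libraries included. Python 3.11.15, numpy 2.4.6, scipy 1.17.1, pandas 2.3.3 and matplotlib 3.10.9 were used.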

Additional observations from a re-analysis of the deposited data

Results flagged for a closer look

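Nuclei that passed every endothelial limit but held a Slc17a7, Gad1 or Gad2 UMI were outside the comparisons, and they carried endothelial RNA: the identity list stood at 2313 CPM in 10 such C57BL/6 nuclei, 3089 CPM in 26 Nav1 KO nuclei and 3896 CPM in 23 BTBR nuclei, against 111 CPM in all nuclei that are not members. Of these 59 nuclei, 26 held a single such UMI. Their median depth was 3832 UMIs, and their neuron list stood at 30137 CPM, between the 12831 CPM of members and the 43230 CPM of other nuclei. Whether they are endothelial nuclei with free neuronal RNA or nuclei captured together was not tested.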

How the results depend on the processing

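Of 104 values recomputed under another setting, 72 stayed near the value given (shares, ratios and levels within its 95% interval, counts of genes within 1.5 times) and 32 moved. Leaving out a library in turn gave 1715 to 2194 genes higher in endothelial nuclei and 29 to 30 identity genes. The cause of the moves below was not tested, except that fewer or more nuclei and genes enter by construction. Dropping the limit on Slc17a7, Gad1 and Gad2 raised the shares to 0.164%, 0.434% and 0.298% (129 nuclei) and gave 796 genes higher in endothelial nuclei, 302 past 2-fold in Nav1 KO and 212 in BTBR, 1915 CPM of mural and 25653 CPM of neuron markers. Without that limit the BTBR share ratio was 1.81 (1.08 to 3.12), an interval that left out 1, against 1.48 (0.720 to 3.16), and the Nav1 KO ratio 2.65 (1.63 to 4.44). Barring mural UMIs lowered the Nav1 KO and BTBR shares to 0.0783% and 0.0609% and the Nav1 KO ratio to 1.27, took the BTBR ratio from 1.48 to 0.990, on the other side of 1 and within its interval, and left 19 and 16 genes past 2-fold, 0 CPM of mural and 18393 CPM of neuron markers. With at least 2 rule UMIs, 124 and 59 genes passed 2-fold and neuron markers stood at 15854 CPM. Under 5% mitochondrial counts, mural markers stood at 2461 CPM and neuron markers at 13993 CPM. With no level minimum, 2860 genes were higher in endothelial nuclei and 5349 and 6010 passed 2-fold between libraries. With at least 50 counts, 10 and 8 did, and with the trimmed mean of M values 120 did in Nav1 KO. No paired analysis was possible because each group has 1 library. The limits are depth (14 to 35 nuclei per library), 1 pool per group and shares that the sort may affect. Levels without the richest nuclei were added after the data were seen.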
